A study of Drosophila melanogaster with 4 samples.

Results

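These results concern the anti-TCF binding sites of late Drosophila melanogaster embryos that lie on the left arm of chromosome 2, called 2L. They are the 300 peaks whose sequence name in the deposited peak list is 2L, out of 1355 peaks listed on 11 sequences, or 22.1% of the list. Membership follows from the sequence name alone and uses no measured value. The series behind the list holds 2 libraries of anti-TCF chromatin immunoprecipitation (ChIP) DNA and 2 of input DNA, which is chromatin taken before immunoprecipitation. How these groups of libraries were used for the list is not stated in the sources used here. Both groups came from whole embryos collected at 16 to 24 h, fixed for 15 min in 1.8% formaldehyde, of a strain named Y cn bw sp. All 4 libraries share its alleles y[1], oc[R3.2], cn[1], bw[1] and sp[1], and further Gr22b[1], CG33964[R4.2] and Gr22d[1], as well as lab[R4.2], LysC[1], Rh6[1], MstProx[1] and GstD5[1]. By the gene table named below, Gr22b and Gr22d, which encode gustatory receptors, are the 2L genes among those of them that the table lists. The serum was a crude rabbit polyclonal against the N-terminal part of the protein, and its specificity was not tested here. Whole embryos mix many tissues, and a peak does not say in which cells it was bound.

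TCF, called Pangolin in the fly, is a DNA-binding protein with an HMG domain and the nuclear end point of the canonical Wnt pathway. Without a Wnt signal it sits on target enhancers with the co-repressor Groucho and keeps genes low, and when Wingless binds its receptors, Armadillo (the fly beta-catenin) accumulates, enters the nucleus, binds the N-terminal part of Pangolin and turns targets on. In the embryo Wingless signalling has roles in the epidermis, gut, heart and nervous system. Several genes for Wnt ligands lie on 2L: in a RefSeq table of Release 6, wg, Wnt4, Wnt6 and Wnt10 are on this arm. There wg, Wnt6 and Wnt10 follow each other without another protein-coding gene between them, and Wnt4 is separated from wg by CG31909. The gene dpp, which encodes a BMP ligand, is on 2L too. The peaks are in FlyBase release 5 coordinates, and positions were not carried between builds, so no peak is assigned to these or other genes and no base sequence under the peaks is shown.

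Each peak has a start, an end and a score. The score is the authors' own value per peak, on a scale that the sources used here do not state, and it serves only to describe and rank peaks within this list. Said of a peak or site below, strong and weak refer to this score alone and not to a measured strength of binding. The list holds no value for a single library. The read depth behind the peaks is therefore unknown, no peak has a replicate error, and intervals below cover counting error of peaks only.

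The highest-scoring peaks of 2L were spread along the arm. The 15 highest-scoring peaks scored from 150.74 to 453.19, all stood among the first 50 of the whole list, and 10 of them lay in the first 11 Mb of the arm. The highest peak, at 2L:480409-481494, scored 453.19 and ranked 2 in the whole list. Another high peak, at 2L:470138-471309, with a score of 278.11, lay in the same group of peaks. Second in score was an isolated peak at 2L:3476429-3478303, with 345.23 and its nearest other midpoint 47514.5 bp away. The third, at 2L:8204889-8205654, reached 311.93 with a width of only 766 bp, and the fourth, at 2L:1119061-1120399, reached 280.95. These 5 are the 2L members of the 15 highest peaks of the whole list.

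Of the other 10, the peak at 2L:20864585-20865521 scored 274.33 and was the strongest beyond 11 Mb. Several strong but separate sites lay between 6 and 8 Mb. There the peak at 2L:6918502-6919464 scored 249.29, the one at 2L:7047968-7049392 scored 206.88, and the one at 2L:6471722-6473800 scored 182.55 over 2079 bp. No other 2 Mb part of the arm outside the first had 3 peaks with a score of 100 or more. In the second part of the arm, 2L:19572285-19573617 scored 178.37, 2L:14376663-14377312 scored 175.88 and 2L:16859045-16859703 scored 174.22. The remaining members were 2L:9955919-9957646 with 168.08, 2L:1633227-1634740 with 158.72 and 2L:18965234-18967834 with 150.74. The step to the next peak was small, since the sixteenth, at 2L:4333312-4333864, scored 146.01. Below these, 4 more peaks had a score of 100 or more, the lowest of them 116.65, which makes 20 in all (6.67% of the 300). The other large arms had 16 such peaks of 310 on 3L, 20 of 327 on 3R, 13 of 243 on 2R and 13 of 139 on X.

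**Figure D1:**
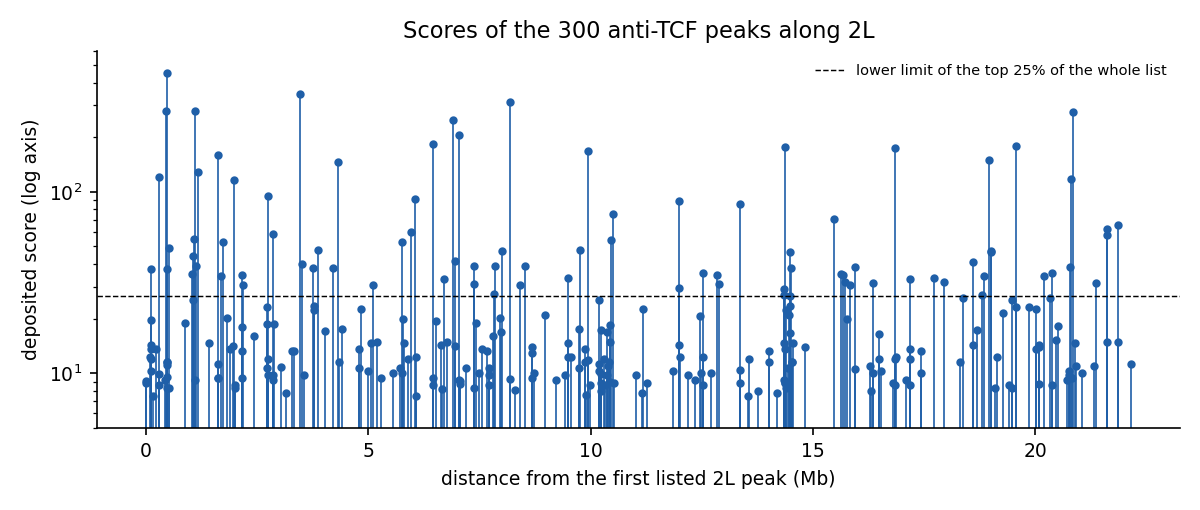
Deposited score of each of the 300 peaks on 2L (log axis) against its distance from the first listed peak in Mb. Each point is a peak, and the dashed line marks 26.69, the lower limit of the top 25% of the whole list. High scores up to 453.19 stand singly among many scores near 10, and no score of 100 or more occurs from about 10 to 14 Mb.

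Most peaks scored far lower. The median score on 2L was 13.995, with an interquartile range of 10.03 to 31.3 and a lowest score of 7.50. The median on 3L was 13.525, on 3R 13.56 and on 2R 13.91, and the distribution-free 95% interval of the 2L median, 13.22 to 14.95, holds all of them. On X the median was 19.82, outside that interval. The upper quartile set 2L apart from the other autosomal arms, at 31.3 against 23.4 on 3L, 24.6 on 3R and 23.1 on 2R. That of X was 36.4.

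With all peaks counted, the density of peaks on 2L was not shown to differ from that of the other large autosomal arms and was higher than that of X. It had 13.5 peaks per Mb (exact Poisson 95% interval 12.1 to 15.2) over the 22.1 Mb from its first to its last peak. The ratio of its density to that of 3L was 1.01 (exact conditional 95% interval 0.858 to 1.19), to that of 3R 1.14 (0.974 to 1.34) and to that of 2R 1.14 (0.959 to 1.35). None of these differed from 1 in a two-sided exact binomial test, with p adjusted over the 4 arms of 0.94 for 3L and 0.18 for 3R and 2R. The intervals allow 2L to be as much as 1.19 to 1.35 times as dense. Against X, at 6.42 peaks per Mb, the ratio was 2.11 (1.72 to 2.60, exact binomial test, adjusted p = 2.1e-13).

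In the number of stronger peaks per Mb, 2L was ahead of every other large arm, but in their share of an arm's own peaks X was ahead of 2L. The top 25% of the whole list, with scores of 26.69 or more, held 86 peaks of 2L, or 3.88 per Mb. On the other arms the same limit left 2.68 per Mb on 3L (62 peaks), 2.68 on 3R (74), 2.50 on 2R (51) and 2.31 on X (50). The ratios were 1.45 to 3L (95% interval 1.03 to 2.04), 1.45 to 3R (1.05 to 2.00), 1.56 to 2R (1.09 to 2.25) and 1.68 to X (1.17 to 2.43). In two-sided exact binomial tests, adjusted p was 0.027 for 3L and 3R, 0.026 for 2R and 0.014 for X. The counts per arm were known when this test was chosen, so it is no independent evidence of a difference. Without the first 2 Mb of 2L, its densest part, the ratios were between 1.29 and 1.50 and none passed (exact binomial test, adjusted p from 0.11 to 0.16). In the top 10% of the list, where 31 peaks were on 2L, the ratios ran from 1.10 to 1.44 and none passed either (exact binomial test, adjusted p from 0.70 to 0.71). As a share of an arm's own peaks, the top 25% made up 28.67% on 2L (95% interval 23.62 to 34.14). It made up 35.97% on X (28.01 to 44.54), 20.0% on 3L (15.69 to 24.89), 22.63% on 3R (18.21 to 27.56) and 20.99% on 2R (16.04 to 26.65). The interval of each other arm overlaps that of 2L, and differences in these shares were not tested.

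Split by score, the ratio of 2L to the other autosomal arms was highest in a middle range. Between the limits of the top 25% and the top 10%, with scores from 26.86 to 56.91, 2L had 55 peaks or 2.48 per Mb, and 3L, 3R and 2R together had 103 peaks or 1.45 per Mb. That is a ratio of 1.72 (95% interval 1.21 to 2.40), and each of the 3 arms alone was between 1.32 and 1.60 per Mb. The 55 peaks include the 8 wide, isolated ones described under other observations. How far the ratio depends on them was not tested. Under the list median the densities were 6.86 on 2L and 6.52 on the 3 arms (ratio 1.05, 0.870 to 1.27). From the median to the top 25% they were 2.80 and 3.22 (ratio 0.870, 0.646 to 1.16), and in the top 10% they were 1.40 and 1.18 (ratio 1.19, 0.759 to 1.81). These bands were chosen after the data were seen, and the intervals are given without a test.

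**Figure D2:**
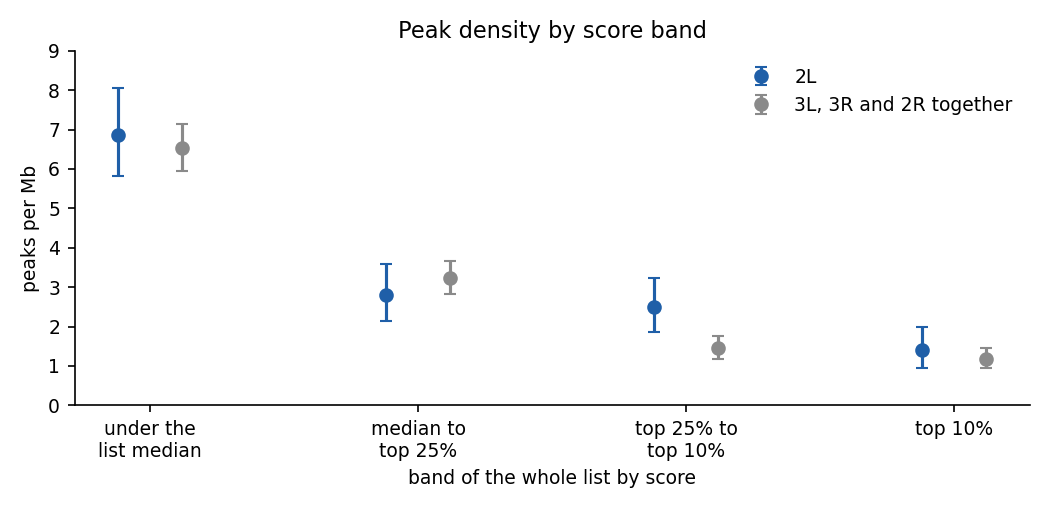
Peaks per Mb in 4 bands of the whole list by score, for 2L (blue, left) and for 3L, 3R and 2R together (grey, right), with exact Poisson 95% intervals. In the band from the top 25% to the top 10% the density was 2.48 on 2L and 1.45 on the 3 other arms, and in the other 3 bands the intervals overlap.

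Peaks were found in every full bin of 2 Mb along 2L, with the most in the first. The first 2 Mb held 45 peaks (exact Poisson 95% interval 32.8 to 60.2), which is 15.0% of all on the arm, against 19 to 34 in each of the other 10 full bins of 2 Mb. They also held 16 of the 86 peaks in the top 25% of the list and 7 of the 20 peaks with a score of 100 or more. The peaks in this part were close together: joined at midpoint gaps of up to 10 kb, they formed 23 groups, close to the 24 groups of the bin from 6 to 8 Mb with its 34 peaks. The bin from 10 to 12 Mb was the weakest. It had 25 peaks but a median score of 10.34, a highest score of 75.20 and only 2 peaks in the top 25%. The bin from 18 to 20 Mb had the fewest peaks, 19, and the highest median score, 23.30.

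From the start of the arm to 11 Mb there were 174 peaks (58.0%), and beyond it 126. Peaks with a score of 100 or more numbered 14 in the first part and 6 in the second, while the medians were 13.615 and 14.275. The spread over bins was narrower on 2L than on the other autosomal arms, with a variance of 2.19 times the mean, against 3.80 on 3L, 3.29 on 3R and 3.91 on 2R. X had 1.76. This is a description of 10 to 13 full bins per arm, counted from base 1, without a test. The incomplete last bin of each arm was left out, on 2L the one from 22 Mb with 1 peak. How far the values depend on where the bins begin and end was not tested. The fewest peaks in any full bin were 19 on 2L, against 13 on 3L, 10 on 3R, 2 on 2R and 5 on X.

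**Figure D3:**
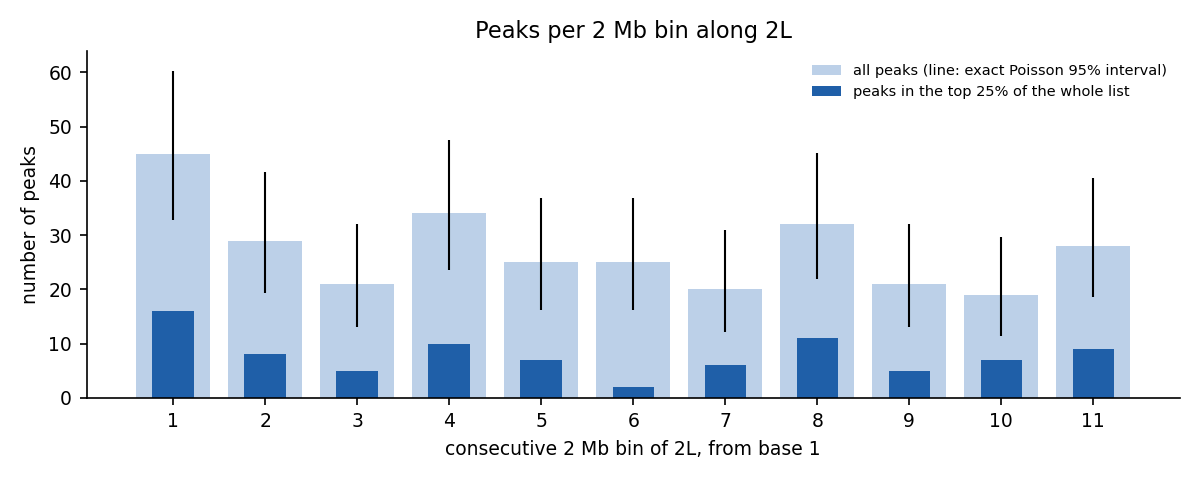
Number of peaks in each of the 11 full bins of 2 Mb along 2L (light bars, with exact Poisson 95% intervals) and of those in the top 25% of the whole list (dark bars). The first bin has 45 peaks and the others 19 to 34, and the sixth bin has 2 peaks in the top 25% among 25.

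The longest stretch between adjacent peaks of 2L was 0.647 Mb, between 14843934 and 15490728. The ends of the arm before its first and after its last listed peak were not counted. The next were 0.590 Mb between 11281512 and 11871100, and 0.480 Mb between 10541912 and 11021689. Measured in the same way, the longest stretch on each other large arm exceeded that of 2L. It was 0.951 Mb on 3L, 0.883 Mb on 3R, 1.63 Mb on 2R and 1.41 Mb on X. The 299 spaces between adjacent 2L peaks had a median of 32216 bp and an interquartile range of 4025.5 to 110386 bp.

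Peaks on 2L often lay in small groups, as they did on the other autosomal arms. Another peak midpoint lay within 10 kb of 154 of the 300 peaks (51.3%, exact Clopper-Pearson 95% interval 45.5 to 57.1), against 52.3% on 3L, 50.2% on 3R, 53.5% on 2R and 38.1% on X. The 2L share was 30.7% with peaks less than 1 kb apart merged. With the list first cut to its top 50% or top 25%, it was 26.4% and 14.0%. There only peaks kept by the cut count as neighbours, so these lower shares follow in part from the cut. The 2L peaks joined into 203 groups: 146 single peaks, 35 pairs, 13 groups of 3, 6 groups of 4, and 1 group each of 6, 7 and 8. In the 22 groups of 3 or more, the highest peak had a median score of 55.8 and a median width of 812 bp. The other 62 peaks of these groups had a median of 11.6 and 319 bp. In pairs, the higher peak had a median score of 22.7 and the lower one 10.03. Since the higher peak is picked by its score, its lead is a description. Single peaks had a median of 14.9 and a median width of 378.5 bp.

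Groups with more than 1 strong peak were few. Of the 57 groups with 2 or more peaks, 46 had a second peak under 20. In 18 of the 57 the highest peak reached 50, and in 13 of these 18 the second was under 20. Only 2 groups had 2 peaks of 50 or more, the one at 2L:470138-489805 and the one at 2L:21619003-21623563, whose peaks scored 62.21 and 57.49. The highest peak stood at an end of the group in 11 of the 22 groups of 3 or more and inside it in the other 11. Of the 20 peaks with a score of 100 or more, 13 had a neighbour within 10 kb (65.0%, 95% interval 40.8 to 84.6), and of the 280 weaker ones 141 did (50.4%, 44.3 to 56.4). These intervals overlap.

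The largest group on 2L held 8 peaks over 19668 bp, from 470138 to 489805. It began with the peak of 278.11, which was followed after about 8 kb by a weak peak of 11.59 and then by the highest of the arm, 453.19. On the other side came a peak 1065 bp wide that scored 37.38 and then 4 weak ones with scores of 11.59, 8.31, 11.13 and 9.58. So 3 peaks of this group were wider than 1 kb and the other 5 were 311 to 418 bp wide.

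The group of 7, from 14368764 to 14401823, was the longest at 33060 bp and had a single strong peak, at 175.88 and 650 bp. Its other 6 peaks scored 14.6, 13.56 and 8.86 before that peak and 8.86, 22.24 and 8.31 after it. The group of 6, from 110917 to 124326, had no strong peak. Its highest was 37.72, at 2L:120625-121662, and its other peaks scored from 10.32 to 19.67. All but the first lay within 4602 bp, from 119725 to 124326.

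**Figure D4:**
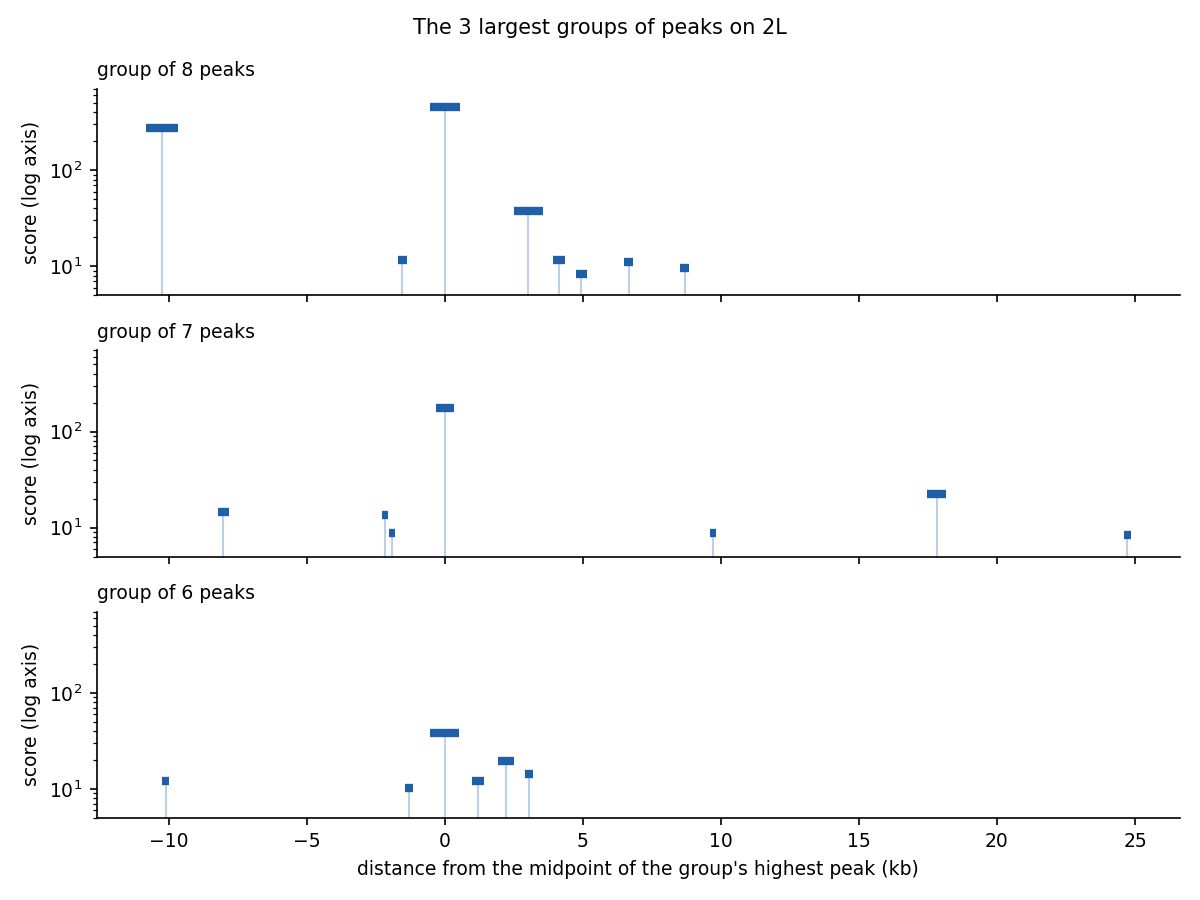
Peaks of the 3 largest groups on 2L as horizontal bars, drawn to scale by their width, at the height of their score (log axis), against the distance in kb from the midpoint of the group's highest peak. The group of 8 has 2 peaks above 100, the group of 7 has 1, and the group of 6 has none, its highest being 37.72.

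Short spaces were common and none of the peaks overlapped. In 49 of 299 spaces the next peak began less than 1 kb after the last one ended, and in 10 of them less than 100 bp after it. These shares, 16.4% and 3.34%, were like those on 3L, 3R and 2R together, at 16.0% and 3.31%. The nearest peaks were 47 bp apart, at 2L:15955818-15956642 with a score of 38.39 and at 2L:15956690-15956949 with 10.62. Whether the list gives a single bound region as more than 1 peak was not tested. Merging peaks less than 1 kb apart left 251 peaks on 2L.

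Peak width went with score. The 300 peaks were 201 to 2601 bp wide, with a median of 378 bp, and covered 159 kb, or 0.720% of the arm's extent, against 0.649% on 3L, 0.626% on 3R, 0.608% on 2R and 0.350% on X. Across the 2L peaks, Spearman's rho between score and width was 0.77 and Pearson's r 0.56, given as a description across peaks. Median width was 284.5 bp under the list median, 453 bp from there to the top 25%, 716 bp from the top 25% to the top 10%, and 963 bp above. The matching medians on 3L, 3R and 2R together were 264.5, 445, 765 and 1086 bp. Within the top 25% on 2L, rho was 0.29. That cut narrows the range of scores, which by itself tends to lower rho, so the drop is no trait shown for strong peaks. Single strong peaks did depart from the relation: the peak of 311.93 spanned 766 bp, while the widest, at 2L:18965234-18967834 with 2601 bp, scored 150.74. The second widest, at 2L:2871922-2874036 with 2115 bp, scored only 58.66, and the third, at 2L:6471722-6473800, is among the 15 highest.

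**Figure D5:**
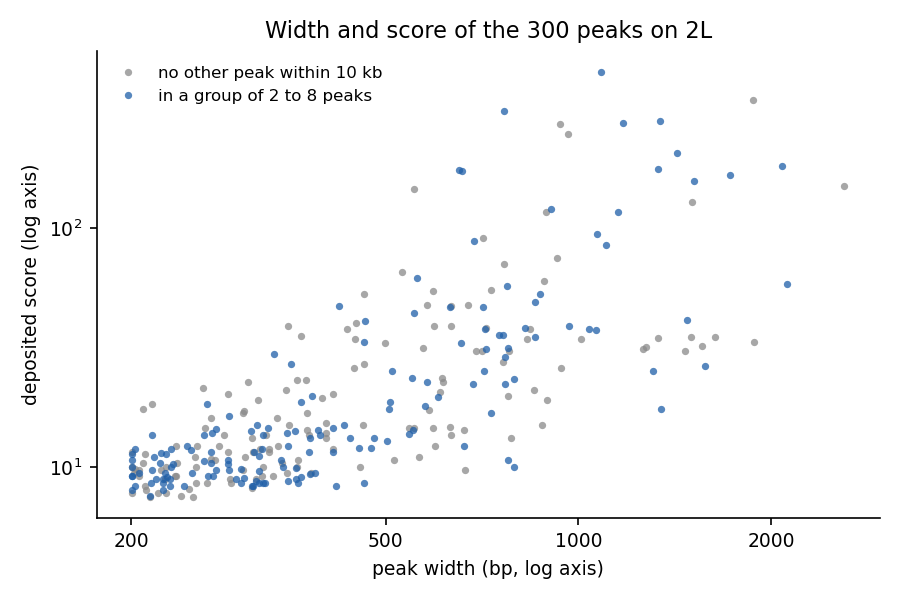
Deposited score against width in bp of the 300 peaks on 2L, both on log axes, for peaks without (grey) and with (blue) another peak midpoint within 10 kb. Score and width rise together from 201 bp on, and a set of grey points near a score of 33 lies to the right of the main cloud at widths of 1263 to 1879 bp.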

How the data were processed

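Anti-TCF ChIP and input DNA of Drosophila melanogaster embryos were sequenced, with 2 libraries each. The aligner BWA, the peak caller MACS2, CASAVA (1.7.0.2, 1.7.0.3) and the build BDGP5 appear in the submitters' processing notes, without a role or order. The authors deposited 1 peak list, whose header states FlyBase release 5. For each peak the authors deposited a start, an end and a score, with MACS as its source, per the file headers and columns. Not stated in these sources are the calling threshold, the kind of score and the treatment of replicates. Depth is unknown.

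Width was end minus start plus 1, and neighbours within 10 kb were found by midpoints. Spaces, empty stretches, merging and the nearest pair used the bases between the end of a peak and the start of the next. An arm's extent ran from its first to its last peak. Densities of 2 arms were compared by a two-sided exact binomial test on their peak counts, given the extents, with Benjamini-Hochberg adjustment over the 4 arms compared with 2L. This treats peaks as independent, although many are grouped. The comparison was tested on simulated data. Groups joined midpoints up to 10 kb apart. Peaks were named by rule: the 15 highest scores, groups of 5 or more, the 3 longest empty stretches, the 3 widest peaks and the nearest pair. Any other peak was named because of its values. The members, lists and rules were chosen with earlier results of these data known. Planned placement at genes and motifs was not run, since the gene table is of Release 6. Computations used Python 3.11.15, numpy 2.4.6, scipy 1.17.1 and pandas 2.3.3.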

Additional observations from a re-analysis of the deposited data

How the results depend on the processing

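Of 58 alternative values for 11 results, 34 kept their direction and side of the threshold or stayed within the main value's interval. No paired analysis was possible because no column of the file belongs to a single library, so no replicate could be left out either. For the density of all peaks, the ratio of 2L passed in the top 25% by score against 3L (1.45), 3R (1.45) and 2R (1.56), and against 3L it turned to 0.943, not passing (exact binomial test, adjusted p = 0.50), without the densest 2 Mb of 2L. For the top 25%, the ratios to 3L, 3R, 2R and X no longer passed in the top 10% (1.29, 1.10, 1.19 and 1.44), which leaves 31 peaks on 2L, or without the densest 2 Mb of 2L (1.29, 1.30, 1.39 and 1.50). Without the densest 2 Mb of every arm, those to 3L, 3R and 2R (1.41, 1.27 and 1.49) did not pass (exact binomial test, adjusted p from 0.093 to 0.17), and that to X, 1.71, did. Both of these settings were chosen with the data in view, and taking the densest part from 2L alone lowers its ratios by construction. The share of 2L peaks with a neighbour was 44.3% within 5 kb, 63.0% within 20 kb and 30.7% with peaks under 1 kb apart merged. It was 26.4% in the top 50% by score and 14.0% in the top 25%, where only peaks kept by the limit count as neighbours. The median score was 18.3 with groups counted once by their highest peak and 15.3 after merging. Score and width had a Spearman's rho of 0.58 among the top 50% and 0.29 among the top 25%, and both cuts narrow the range of scores. Apart from what construction shows (fewer peaks, higher scores kept), the causes were not tested. Depth limits cannot be given, since no library has a value.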

Other observations

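A set of 8 peaks on 2L stood apart in width and score, seen in the plot of width against score and chosen after their values were seen. Each was 1263 to 1879 bp wide, scored from 30.6 to 35.1 and had no other peak midpoint within 10 kb. They lay in 3 stretches in the second part of the arm. A pair was at 2L:12861746-12863076 and 2L:12894042-12895304, with scores of 34.86 and 31.24. Another 4 were at 2L:15652962-15654593, 2L:15686810-15688306, 2L:15721855-15723130 and 2L:15838539-15840003, with scores of 35.11, 34.93, 31.69 and 30.6, and 1 further peak, of 19.82, lay among them. The other pair was at 2L:17727548-17729426 and 2L:17952047-17953608, with scores of 33.43 and 32.02.

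Peaks over 1200 bp wide with a score under 50 numbered 12 on 2L, 10 of them beyond 11 Mb. There were 3 such peaks on 3L, 10 on 3R, 7 on 2R and 3 on X. Among those, a score from 30 to under 36 was found for 8 on 2L, 1 on 3L, 2 on 3R, 1 on 2R and 2 on X. Both limits were drawn around the 8 peaks already picked on 2L, so the lead of 2L in this count follows from the choice and is no finding. Without the limit on score from 30 to 36, the wide peaks under 50 with no other midpoint within 10 kb numbered 8 on 2L, 3 on 3L, 3 on 3R, 5 on 2R and 2 on X. The 8 on 2L are again the peaks already picked, and their width and isolation set the limits of this count. The lead of 2L in it thus follows from the choice too and is no finding. No difference between arms was tested.

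Scores on 2L repeated often: the 300 peaks had 163 distinct scores, and 185 peaks shared theirs with another 2L peak. The commonest, 8.59, occurred on 11 peaks that were 215 to 463 bp wide, and 10.03 on 9 peaks from 201 to 792 bp. The width of 201 bp, the smallest on the list, was found for 9 peaks.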
